A study of Mus musculus with 12 samples.

Results

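The comparison described here set the livers of mice fed a diet named HFCF for 1 month against the livers of mice fed normal chow for 1 month. It took the 3 HFCF and the 3 chow libraries that the labels place at 1 month, 6 of the 12 libraries in the series, and all genes of the deposited count table. All 6 mice were C57BL/6, labelled wild type and 3 months old, and received no agent or allele beyond the diet. The labels do not spell out HFCF, and they give neither the composition of the diet nor the time of day or feeding state at which livers were taken. The other 6 libraries are of C57BL/6 mice labelled 6 months old after 3 months on the same diets, in 3 biological replicates each, in a series on experimental nonalcoholic steatohepatitis. Whole frozen liver was used for total RNA, so a lower level can be fewer cells of a type or less RNA per cell, and these cannot be told apart.

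The liver makes cholesterol from acetyl-CoA through a chain of enzymes whose genes are switched on by the transcription factor SREBP2 when sterol is scarce, while oxysterols activate the receptor LXR, which switches on exporters of sterol. Hepatocytes also store glucose as glycogen, burn fatty acids under the control of the receptor PPAR-alpha, and fold large amounts of secreted protein in the endoplasmic reticulum (ER). Many of these genes in liver also follow feeding and the circadian clock.

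The 6 libraries held 15006133 to 18558710 counts, and 14725 of 16035 listed genes had enough counts to be tested. The 16 hepatocyte-defining genes summed to between 128700 and 156900 counts scaled to library size (CPM, the usual per-million unit) in chow and between 112900 and 131100 CPM in HFCF, and 0 of 16 passed edgeR's test at 1 month, with 3 at an unadjusted p under 0.05 and 1 called by DESeq2's Wald test. Such an unadjusted p was reached by 2397 of all 14725 genes tested. Albumin, Alb, stood at 59800, 51100 and 58700 CPM in chow and 38100, 56500 and 34500 CPM in HFCF, ranges that overlap (log2 change -0.39 ± 0.21, edgeR adjusted p = 0.388). In the first principal component of log2 CPM over the 6 libraries, which held 38.1% of the variance, the chow libraries lay at -41.2, -7.56 and -16.2 and the HFCF libraries at 33.8, 17.5 and 13.7. Replicate 1 of chow and replicate 1 of HFCF therefore stood farthest apart, and results without them are given beside the counts below.

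Log2 changes are HFCF over chow ± SE from edgeR's quasi-likelihood fit, and a gene was called when its Benjamini-Hochberg adjusted p over the 14725 genes was under 0.05. At 1 month 301 genes were called, 2.04% of those tested, with 153 higher in HFCF (1.04%) and 148 lower (1.01%). Among them 47 rose and 51 fell at least 2-fold, and the median size of the change was 0.76 on the log2 scale. All 301 had the 3 HFCF libraries on one side of the 3 chow libraries, as had 3030 of all genes tested (20.6%). The number of calls depended on which libraries were used. The fit took its estimate of spread from all 12 libraries of the series. A fit of the 6 libraries alone called fewer genes, as given below. Without chow replicate 1 the count was 73, without chow replicate 3 it was 65, without HFCF replicate 1 it was 73, and without both replicates numbered 1 it was 20, of which 8 were higher and 12 lower. The call was kept without each of the 6 libraries in turn by 42 genes, 19 higher and 23 lower, and the direction by 299 of the 301.

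**Figure D1:**
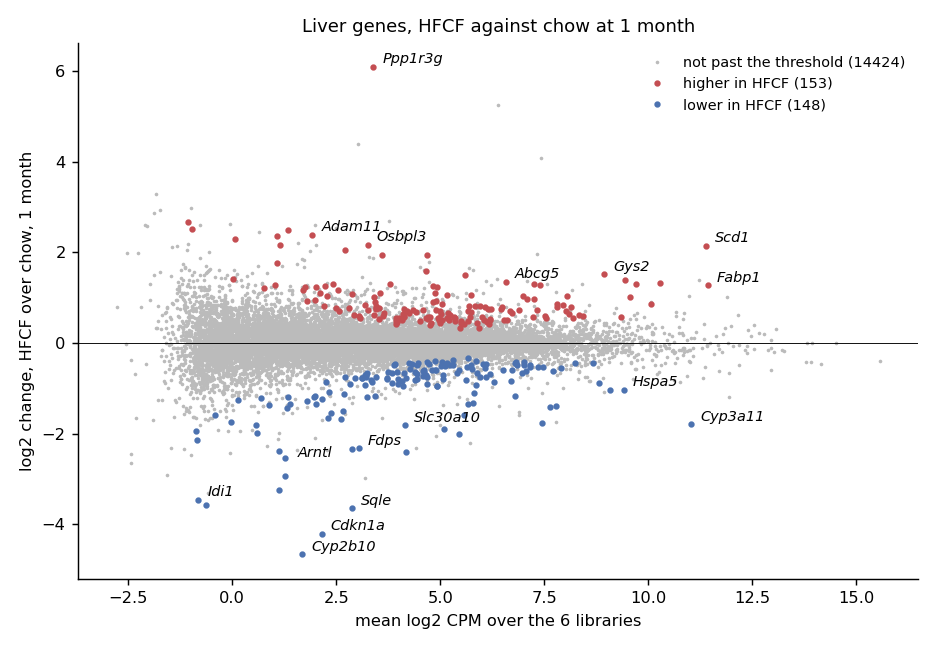
Log2 change of HFCF over chow at 1 month (vertical axis) against the mean log2 CPM over the 6 libraries (horizontal axis), 1 point per gene. Red points are the 153 genes called higher, blue points the 148 called lower and grey points genes that were not called; Ppp1r3g lies highest at 6.09 and Cyp2b10 lowest at -4.66.

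Gene lists that describe liver functions were chosen with earlier results of these data known, so their counts are given as descriptions beside the shares over all genes. Cholesterol synthesis held the largest share of called members of the lists examined, with 12 of 19 lower (63.2%). The list of sterol sensing, SREBP regulation and other SREBP2 target genes had 3 of 12 lower (25%). ER chaperones had 5 of 23 lower (21.7%). In the other direction sterol export had 3 of 14 higher (21.4%) and fatty acid oxidation 5 of 34 higher (14.7%). In lists with 1 called member, that member was 3.03% to 11.1% of those tested, against 2.04% of all genes. Without both replicates numbered 1, an alternative chosen after seeing the data, 7 members of cholesterol synthesis were called, 1 each of the SREBP2, sterol export, clock, amino acid and retinoid lists, and 0 of the other lists with calls.

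**Figure D2:**
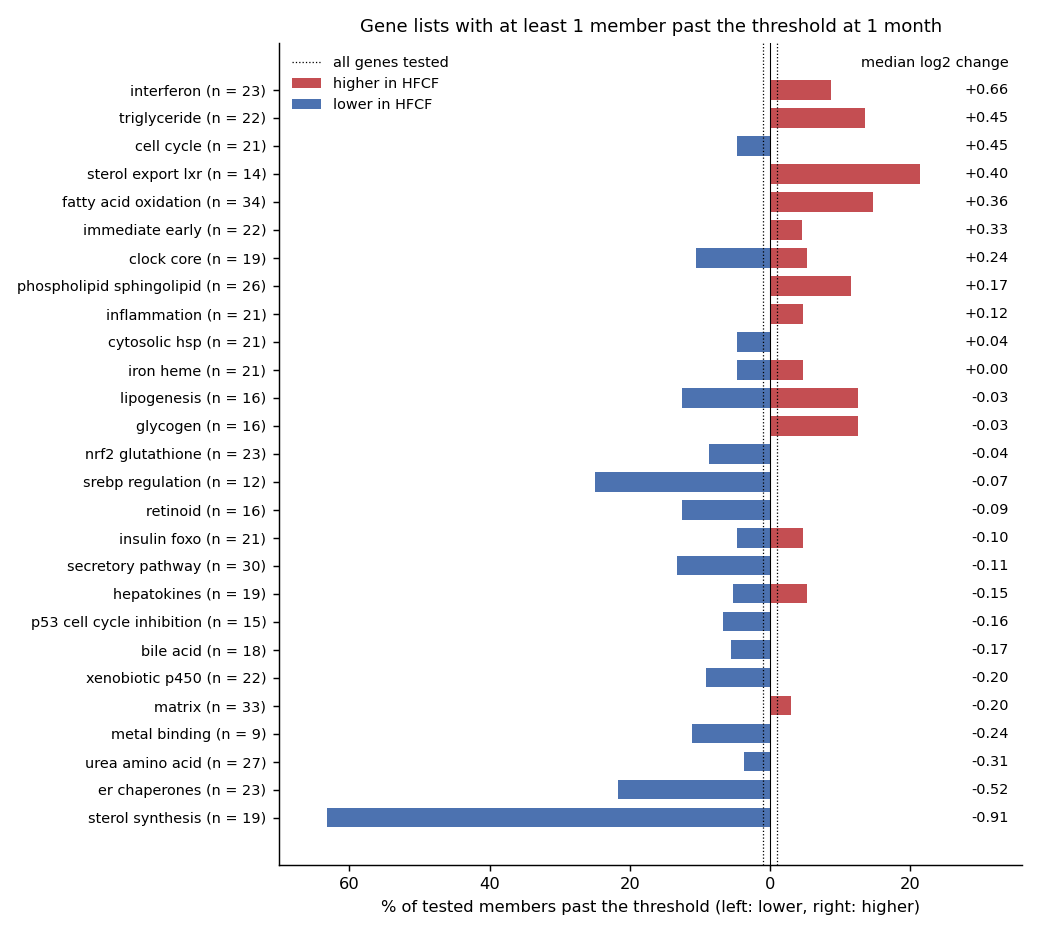
Share of tested members called higher (red, to the right) or lower (blue, to the left) in HFCF at 1 month, for each gene list with at least 1 called member; n is the number of members tested. Dotted lines mark the shares over all genes tested (1.04% higher, 1.01% lower) and the column at the right gives the list's median log2 change, which runs from -0.91 for sterol synthesis to 0.66 for interferon genes.

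Cholesterol synthesis was lower along much of its length in the HFCF livers. Of 19 enzyme genes tested, 12 fell and 0 rose, the median change of the list was -0.91 against -0.005 for all genes, and 14 had all HFCF libraries below all chow libraries, against 10.5% of all genes. The squalene epoxidase gene Sqle, on chromosome 15 from 59315077 to 59331192 (mm10), is a rate-limiting step after squalene. It stood at 11.7, 33.7 and 35.4 CPM in chow and at 1.57, 2.81 and 2.12 CPM in HFCF. Chow replicate 1 was thus the lowest of its group, yet still above each HFCF library. Sqle fell by 3.65 on the log2 scale (SE 0.41, edgeR adjusted p = 0.00464). Fdps, which makes farnesyl pyrophosphate, had 11.7, 23 and 20.9 CPM in chow and 3.02, 3.47 and 4.71 CPM in HFCF. It fell by 2.32 (SE 0.27, edgeR adjusted p = 0.00276), although 26.7% of its exons overlap a predicted gene on the same strand. The mevalonate decarboxylase gene Mvd had 3.27, 5.34 and 5.38 CPM in chow and 0.839, 0.801 and 1.02 CPM in HFCF, and fell by 2.39 (SE 0.32, edgeR adjusted p = 0.00485).

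Of the later enzymes, Nsdhl, Tm7sf2 and Dhcr7 also had each HFCF library below each chow library. Nsdhl, which removes methyl groups from sterol intermediates, stood at 7.66, 13.7 and 11.8 CPM in chow and 3.30, 4.34 and 2.66 CPM in HFCF (log2 change -1.68 ± 0.24, edgeR adjusted p = 0.00597). The sterol reductase gene Tm7sf2 stood at 86.3, 78.9 and 85.4 CPM in chow and 21.8, 39.5 and 22.4 CPM in HFCF (-1.58 ± 0.21, edgeR adjusted p = 0.00558), with 12.1% of its exons shared with Vps51. Dhcr7, the last step in one branch, stood at 14.6, 18.1 and 15.7 CPM in chow and 5.87, 6.88 and 8.73 CPM in HFCF (-1.17 ± 0.18, edgeR adjusted p = 0.00744). These 6 genes, Sqle, Fdps, Mvd, Nsdhl, Tm7sf2 and Dhcr7, kept the call without each library in turn, with a highest adjusted p of 0.0373. The other 6 called members lost it without at least 1 library. Idi1, the isopentenyl isomerase, had 0.691, 1.53 and 2.20 CPM in chow and 0.168, 0.200 and 0 CPM in HFCF (-3.46 ± 0.60, edgeR adjusted p = 0.0128, and 0.0586 without chow replicate 3). Msmo1 had 45.5, 118 and 110 CPM in chow and 20.2, 27.9 and 19.5 CPM in HFCF (-2.02 ± 0.33, edgeR adjusted p = 0.019, and 0.099 without HFCF replicate 1). The lanosterol demethylase gene Cyp51 had 37.0, 90.3 and 74.5 CPM in chow and 19.2, 16.5 and 18.8 CPM in HFCF (-1.89 ± 0.29, edgeR adjusted p = 0.0135, and 0.0699 without HFCF replicate 1). The remaining called members were Mvk (-0.91), Pmvk (-0.79) and Lss (-0.63), whose adjusted p reached 0.0964 and 0.17 for Mvk and Lss without HFCF replicate 1 and 0.0717 for Pmvk without chow replicate 3.

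Acat2 and Sc5d, named after their values were seen, had uncalled changes of 0.07 ± 0.16 and -0.00 ± 0.13, so the extent of the difference varied widely between enzymes of the chain. In all, 7 of the 19 were called without both replicates numbered 1, namely Sqle, Fdps, Mvd, Nsdhl, Idi1, Msmo1 and Cyp51.

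Among the genes of sterol sensing, SREBP regulation and other SREBP2 targets, 3 of 12 fell and 0 rose. The list median was -0.07, with 6 positive and 6 negative changes. Srebf2, which encodes SREBP2 itself, had 18.6, 18.1 and 21.5 CPM in chow and 9, 12.7 and 10.2 CPM in HFCF (-0.87 ± 0.14, edgeR adjusted p = 0.00744) and kept the call without each library. Insig2, which encodes an ER protein that holds back SREBP processing, had 860, 777 and 699 CPM in chow and 336, 323 and 481 CPM in HFCF (-1.04 ± 0.19, edgeR adjusted p = 0.0154, and 0.0841 without HFCF replicate 1). In both genes the groups did not overlap. Insig1, which encodes a close relative of the INSIG2 protein, was not called and had 77.1, 107 and 114 CPM in chow and 53.9, 83.2 and 44.0 CPM in HFCF (-0.72 ± 0.32, edgeR adjusted p = 0.303).

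Of 14 sterol export and LXR target genes 3 rose, Abcg5, Abcg8 and Osbpl3, and the other 11 were not called. Abcg5 and Abcg8 encode the partner proteins of the transporter that sends cholesterol into bile, and lie head to head on chromosome 17 (84658234 to 84683011 and 84676302 to 84700333). Abcg5 stood at 55.0, 64.6 and 58.8 CPM in chow and 146, 171 and 138 CPM in HFCF (1.35 ± 0.15, edgeR adjusted p = 0.00188). Abcg8 stood at 87.7, 91.0 and 89.8 CPM in chow and 175, 202 and 171 CPM in HFCF (1.03 ± 0.17, edgeR adjusted p = 0.00931). Each HFCF library lay well above each chow library for both genes, and both kept the call without each library in turn. Osbpl3, an oxysterol-binding protein gene, had 4.08, 5.28 and 4.18 CPM in chow and 27.1, 14.1 and 19.6 CPM in HFCF (2.17 ± 0.46, edgeR adjusted p = 0.0487, and 0.193 without chow replicate 1). The list had 0 lower calls, a median of 0.40 and 8 members with no overlap, against 10.1% of all genes. Of 2 further exporter genes named after their values were seen, the cholesterol effluxer gene Abca1 had a change of 0.23 ± 0.13 and Abcg1 of 0.63 ± 0.19, neither called. In bile acid genes 1 of 18 was called, the bile salt export pump Abcb11, with 520, 434 and 461 CPM in chow and 346, 366 and 328 CPM in HFCF (-0.45 ± 0.11, edgeR adjusted p = 0.0485, and 0.197 without chow replicate 1). Cyp7a1, whose enzyme opens the classical route to bile acids, had overlapping values of 304, 256 and 656 CPM in chow and 329, 504 and 240 CPM in HFCF (-0.18 ± 0.36, edgeR adjusted p = 0.862).

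**Figure D3:**
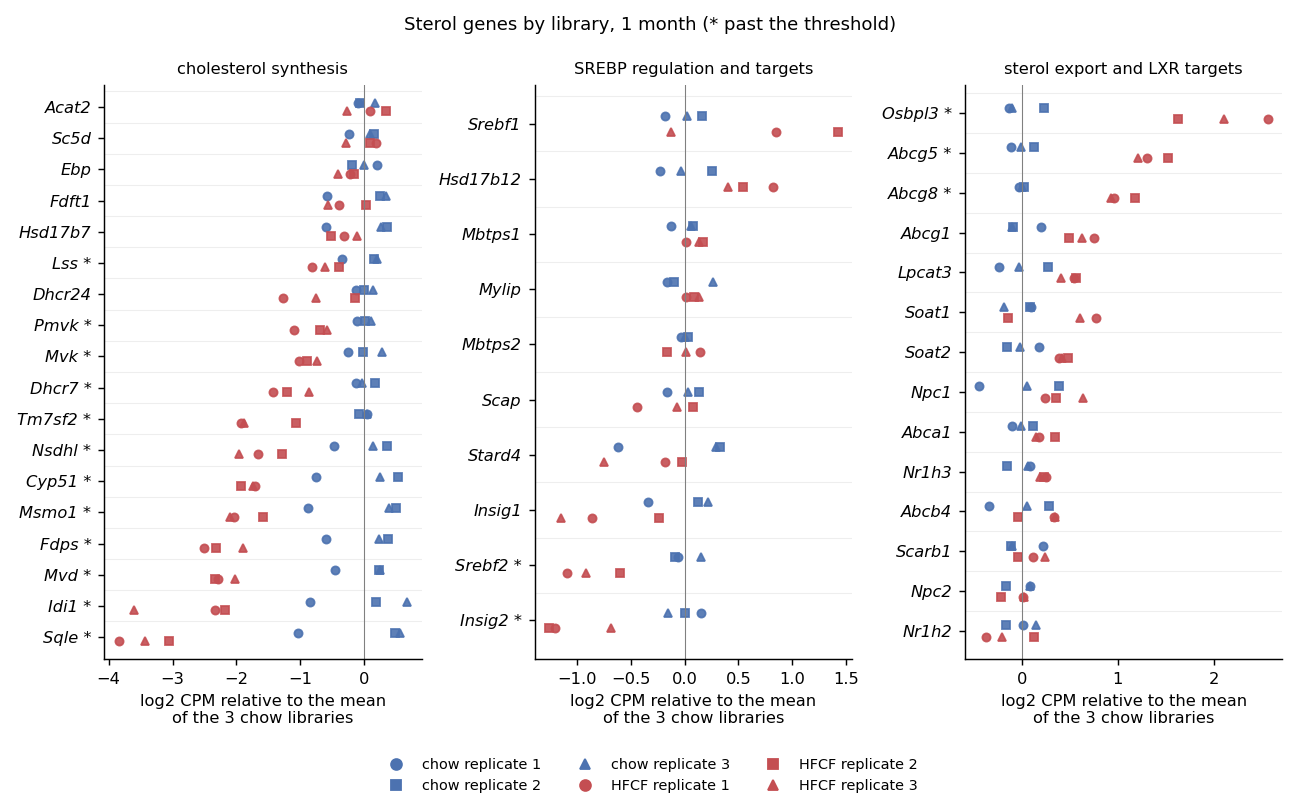
Log2 CPM of each library relative to the mean of the 3 chow libraries (horizontal axis) for members of 3 sterol lists (rows, ordered by log2 change); blue is chow, red is HFCF, symbols are replicates and an asterisk marks called genes. The red symbols of Sqle lie lowest in the synthesis panel, while those of Osbpl3, Abcg5 and Abcg8 lie to the right of all blue symbols in the export panel.

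The promoters of 3 called synthesis genes are shown because CCAAT boxes, which bind the factor NF-Y, a known partner of SREBP2, recur close to the starts of this pathway's genes. They are the 250 bases before the RefSeq start on GRCm38.p6, 5′ to 3′ on the gene's strand: Mvd at chr8:122443423-122443672 (minus strand), Idi1 at chr13:8885356-8885605 (plus strand) and Nsdhl at chrX:72918271-72918520 (plus strand). Capitals mark CCAAT or its reverse complement ATTGG, both strands having been searched.
Mvd: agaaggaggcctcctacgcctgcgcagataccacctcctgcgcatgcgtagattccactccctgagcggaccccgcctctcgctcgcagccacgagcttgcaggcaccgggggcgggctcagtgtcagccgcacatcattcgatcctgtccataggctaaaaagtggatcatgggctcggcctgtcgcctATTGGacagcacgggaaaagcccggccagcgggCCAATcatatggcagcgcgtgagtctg
Idi1: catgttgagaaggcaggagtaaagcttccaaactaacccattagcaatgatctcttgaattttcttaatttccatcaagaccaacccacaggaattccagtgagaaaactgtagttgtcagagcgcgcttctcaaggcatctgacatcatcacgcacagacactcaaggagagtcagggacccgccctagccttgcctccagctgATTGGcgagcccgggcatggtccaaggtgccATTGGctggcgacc
Nsdhl: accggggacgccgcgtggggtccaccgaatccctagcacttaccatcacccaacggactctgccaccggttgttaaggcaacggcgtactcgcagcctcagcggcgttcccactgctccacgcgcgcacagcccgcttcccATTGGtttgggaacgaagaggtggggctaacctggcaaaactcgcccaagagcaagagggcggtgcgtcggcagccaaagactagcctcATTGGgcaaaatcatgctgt
Each of the 3 windows holds 2 matches, the nearest beginning 27, 14 and 20 bases before the start in Mvd, Idi1 and Nsdhl. The bases checked just after the start were found in a GENCODE M21 transcript of Mvd and Idi1 but not of Nsdhl. The Nsdhl distance thus rests on the RefSeq start alone. A match was found in 13 of the 15 windows listed for the pathway (86.7%), against 9314 of 27025 windows over all genes (34.5%). Among called members with a window 9 of 10 had a match, Dhcr7 having none, and the uncalled Ebp, Hsd17b7 and Sc5d had a match as well, as had Hmgcs1, which was not analysed here. No window was listed for Sqle or Fdps. A match is a description of letters, and binding was not measured.

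Genes of fatty acid synthesis did not move as a group. Of 16, 2 rose and 2 fell, with a median of -0.03. The stearoyl-CoA desaturase gene Scd1, which makes monounsaturated fatty acids, had 1600, 1240 and 1220 CPM in chow and 4150, 10300 and 3550 CPM in HFCF. All HFCF libraries were above all chow libraries, and replicate 2 was far above the others of its group. The change was 2.15 ± 0.35 (edgeR adjusted p = 0.0126, and 0.0644 without chow replicate 3). The desaturase gene Fads2 rose from 244, 250 and 284 CPM to 406, 429 and 368 CPM (0.63 ± 0.13, edgeR adjusted p = 0.0235, and 0.104 without chow replicate 1). In contrast Acly and Acss2, which supply cytosolic acetyl-CoA, fell. Acly stood at 143, 158 and 144 CPM in chow and 108, 115 and 111 CPM in HFCF (-0.41 ± 0.08, edgeR adjusted p = 0.0243). Acss2 stood at 115, 132 and 142 CPM in chow and 89.8, 101 and 93.8 CPM in HFCF (-0.45 ± 0.09, edgeR adjusted p = 0.0251). Without HFCF replicate 1 the adjusted p was 0.11 for Acly and 0.119 for Acss2. The fatty acid synthase gene Fasn had 99.5, 177 and 145 CPM in chow and 36, 66.2 and 59 CPM in HFCF, ranges that did not overlap, but was not called (-1.39 ± 0.37, edgeR adjusted p = 0.105).

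Fatty acid oxidation and PPAR-alpha target genes were higher in HFCF for most members and called for few. Of 34 members 5 rose and 0 fell, the median was 0.36, and 24 had no overlap between the groups in the higher direction and 0 in the lower, against 10.1% and 10.5% of all genes. Ppara, which encodes the receptor, had 140, 207 and 165 CPM in chow and 324, 304 and 263 CPM in HFCF (0.80 ± 0.16, edgeR adjusted p = 0.0243). The liver fatty acid binding protein gene Fabp1 had 1640, 2090 and 1720 CPM in chow and 6020, 4100 and 3050 CPM in HFCF (1.27 ± 0.26, edgeR adjusted p = 0.0283). The groups were apart in both genes, although the HFCF values of Fabp1 spread widely. The ketone body enzyme gene Bdh1 had 171, 214 and 169 CPM in chow and 407, 267 and 322 CPM in HFCF (0.85 ± 0.15, edgeR adjusted p = 0.0124). The peroxisomal thiolase gene Acaa1b had 620, 958 and 803 CPM in chow and 2420, 2030 and 1550 CPM in HFCF (1.33 ± 0.31, edgeR adjusted p = 0.0476), and reads may be split with its close relative Acaa1a. Cpt1b, the muscle-type carnitine palmitoyltransferase, had 6.34, 7.57 and 8.15 CPM in chow and 13.1, 16.9 and 14.8 CPM in HFCF (1.02 ± 0.19, edgeR adjusted p = 0.0167), but 81.4% of its exons overlap a readthrough gene shared with Chkb. The liver-type Cpt1a, which controls fatty acid entry into mitochondria, had 1050, 1270 and 1090 CPM in chow and 1470, 1200 and 1700 CPM in HFCF (0.36 ± 0.14, edgeR adjusted p = 0.237). Without chow replicate 1 edgeR called 0 of the 34, and without chow replicate 3 it called 0 as well. The highest adjusted p was 0.106 for Ppara, 0.189 for Acaa1b and 0.0763 for Cpt1b without chow replicate 1, 0.0657 for Bdh1 without chow replicate 3 and 0.122 for Fabp1 without HFCF replicate 1. DESeq2's Wald test called 10 of the list. Fabp2, a fatty acid binding protein gene outside the list, rose from 98.0, 118 and 110 CPM to 294, 220 and 275 CPM (1.28 ± 0.14, edgeR adjusted p = 0.0018) and kept the call without each library.

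In lipid storage and lipolysis 3 of 22 genes rose and 0 fell, with a median of 0.45. The monoglyceride lipase gene Mgll had 165, 192 and 194 CPM in chow and 393, 398 and 346 CPM in HFCF (1.05 ± 0.17, edgeR adjusted p = 0.00959, and 0.0511 without chow replicate 1). The hormone-sensitive lipase gene Lipe had 12.5, 15.1 and 14.9 CPM in chow and 20.2, 24.8 and 18.4 CPM in HFCF (0.58 ± 0.13, edgeR adjusted p = 0.0353, and 0.148 without chow replicate 1), with 15.6% of its exons under an antisense transcript. The fatty acid importer gene Cd36 had 113, 88.6 and 94.7 CPM in chow and 233, 230 and 122 CPM in HFCF (0.98 ± 0.23, edgeR adjusted p = 0.0485, and 0.183 without HFCF replicate 1). For Cd36 the third HFCF library lay close above the chow range. That library was also the lowest of the HFCF group for the 4 tested adipocyte genes, whose summed level ran from 148.4 to 250.8 CPM in chow and from 81.9 to 852 CPM in HFCF, with the adipocyte hormone gene Adipoq too low to test, and the part of fat cells in this result was not tested. The lipid droplet genes Cidec and Plin2 had changes of 1.37 ± 0.59 and 0.45 ± 0.20, with edgeR adjusted p of 0.299 and 0.296. In phospholipid and sphingolipid synthesis 3 of 26 rose, the lysoplasmalogenase relative Tmem86a (1.94 ± 0.30), the sphingosine kinase Sphk2 (0.54 ± 0.11) and the choline kinase Chkb (0.52 ± 0.12). Exons of Sphk2 overlap Dbp and Rpl18 on the other strand over 21.9% and those of Chkb overlap other transcripts over 57.6% of their length.

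Glycogen genes held the largest rise of the comparison. Ppp1r3g, on chromosome 13 from 35958839 to 35970388, encodes a subunit that brings protein phosphatase 1 to glycogen and that in mouse liver is known to follow feeding. It stood at 0.377, 1.76 and 2.05 CPM in chow and at 48.5, 144 and 92.2 CPM in HFCF. Even the lowest HFCF library was far above the highest chow library. The change was 6.09 ± 0.87 (edgeR adjusted p = 0.0154, and 0.0718 without chow replicate 1). Gys2, the liver glycogen synthase gene on chromosome 6 from 142422613 to 142473109, had 276, 360 and 257 CPM in chow and 1050, 564 and 945 CPM in HFCF (1.52 ± 0.21, edgeR adjusted p = 0.00541), a call kept without each library. These were 2 of 16 members, with a list median of -0.03. The related targeting subunits Ppp1r3b and Ppp1r3c, named after their values were seen, had changes of -1.52 ± 0.37 and -1.81 ± 0.44, with edgeR adjusted p of 0.0772 and 0.0793, opposite in sign to Ppp1r3g.

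Of 21 insulin signalling and FOXO1 target genes, 1 rose and 1 fell. Irs2, which encodes an insulin receptor substrate, had 12.9, 15 and 16.2 CPM in chow and 33.5, 60.7 and 37.7 CPM in HFCF (1.58 ± 0.26, edgeR adjusted p = 0.0171, and 0.0853 without chow replicate 1). Cdkn1a, which encodes the cell cycle inhibitor p21, had 31.8, 9.10 and 16.9 CPM in chow and 0.951, 1.14 and 1.02 CPM in HFCF. The 3 HFCF values were close together and far below chow, where the values spread widely. It fell by 4.21 (SE 0.78, edgeR adjusted p = 0.0331, and 0.153 without HFCF replicate 1). Cdkn1a was also the 1 called member of 15 p53 targets and inhibitors, and Mdm2, another p53 target, had 37.2, 37.6 and 36.3 CPM in chow and 32.5, 32.9 and 29.6 CPM in HFCF (-0.22 ± 0.09, edgeR adjusted p = 0.25). Of the 26 glycolysis, gluconeogenesis and fructose genes edgeR called 0, with 5 at an unadjusted p under 0.05 and 2 called by DESeq2's Wald test. Pck1, the gluconeogenic carboxykinase, had a change of 0.22 ± 0.21.

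Of 19 clock genes 1 rose and 2 fell. Arntl, which encodes the activator BMAL1 (chromosome 7, 113207465 to 113314122), had 25.1, 10.9 and 14.7 CPM in chow and 2.52, 3.47 and 4.03 CPM in HFCF (-2.35 ± 0.33, edgeR adjusted p = 0.00744). Its partner gene Clock had 118, 108 and 110 CPM in chow and 71.5, 74.7 and 77.6 CPM in HFCF (-0.59 ± 0.09, edgeR adjusted p = 0.00616). Both kept the call without each library. Nr1d2, which encodes the repressor REV-ERB beta, rose from 68.7, 97.1 and 85.1 CPM to 136, 129 and 135 CPM (0.67 ± 0.14, edgeR adjusted p = 0.0311, and 0.124 without chow replicate 1). The list median was 0.24. Dbp and Per3, output and repressor genes named after their values were seen, had changes of 1.66 ± 0.44 and 1.62 ± 0.45 without passing the test (edgeR adjusted p = 0.103 and 0.115). In chow, replicate 1 was highest for Arntl and lowest for Nr1d2. The labels give no time of sampling, so diet and time of sampling cannot be told apart for these genes.

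**Figure D4:**
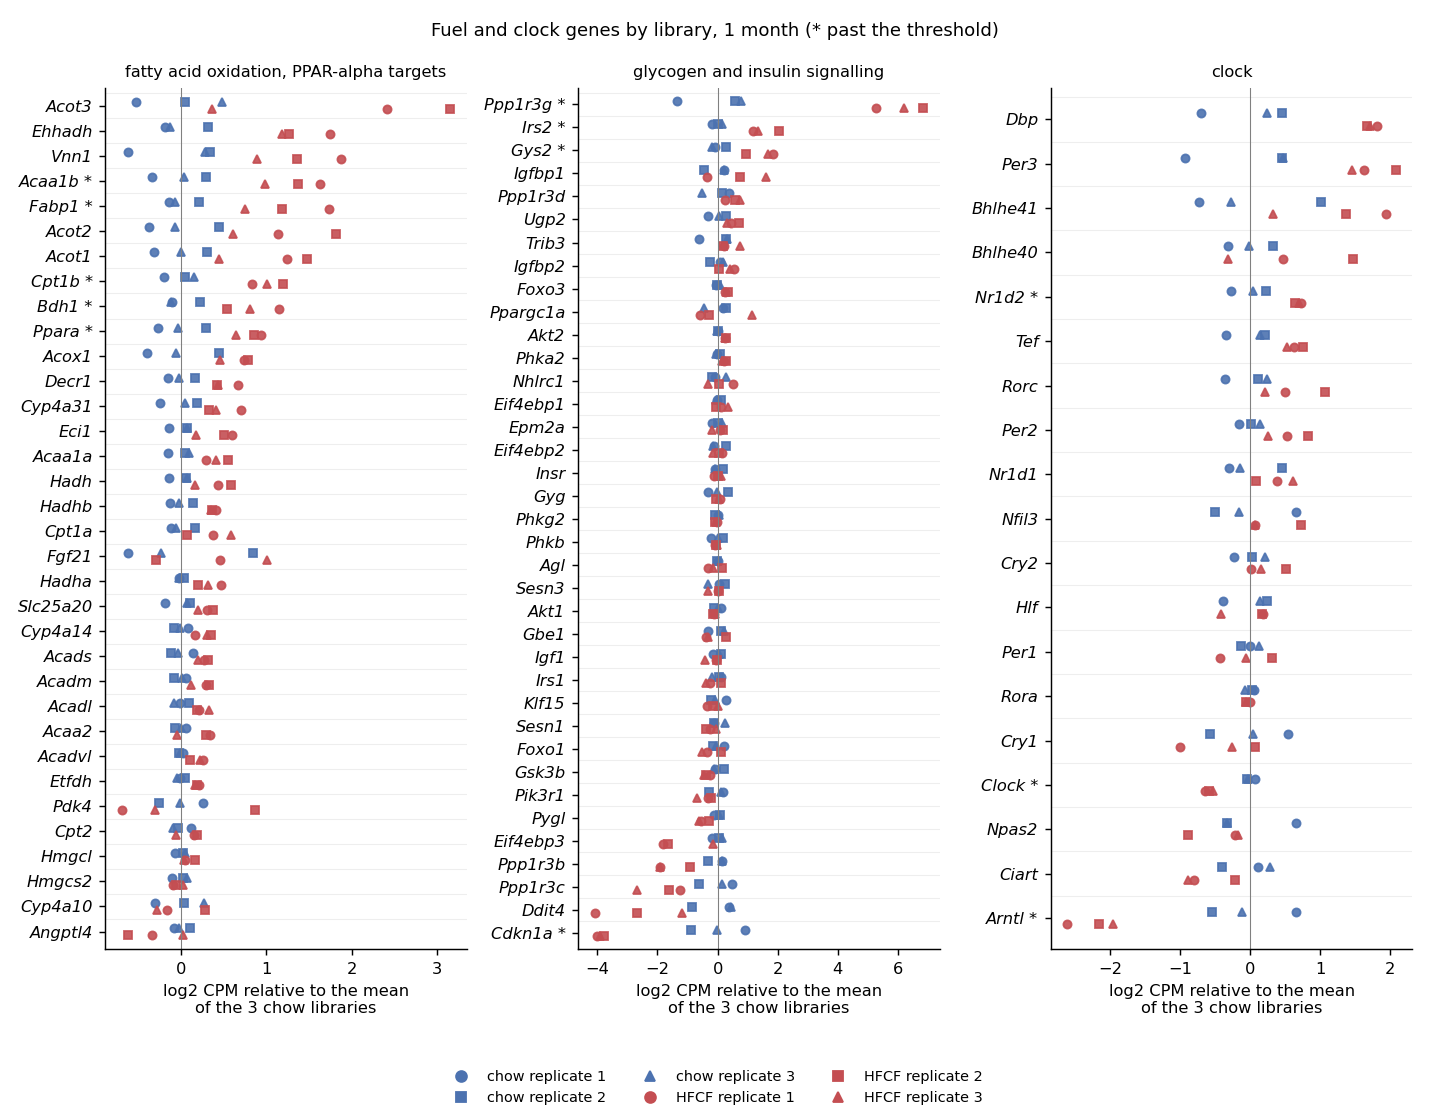
Log2 CPM of each library relative to the mean of the 3 chow libraries (horizontal axis) for fatty acid oxidation genes (left), glycogen and insulin signalling genes (middle) and clock genes (right), with rows ordered by log2 change; blue is chow, red is HFCF, symbols are replicates and an asterisk marks called genes. Most red symbols of the left panel lie to the right of the blue ones, Ppp1r3g stands alone at the top of the middle panel and Arntl lies lowest in the right panel.

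Of 23 ER chaperone genes 5 fell in HFCF and 0 rose. All 23 had a negative change, from -1.34 to -0.14 with a median of -0.52, and 18 had no overlap in that direction, against 10.5% of all genes, while the groups overlapped in the other 5. Hspa5, which encodes the chief chaperone BiP (chromosome 2, 34771970 to 34776531), had 901, 940 and 1120 CPM in chow and 528, 591 and 324 CPM in HFCF (-1.04 ± 0.22, edgeR adjusted p = 0.0336, and 0.121 without chow replicate 3). Hyou1, its exchange factor, had 145, 170 and 192 CPM in chow and 67.7, 98.2 and 58.7 CPM in HFCF (-1.18 ± 0.23, edgeR adjusted p = 0.0258, and 0.123 without HFCF replicate 1). In both genes the third HFCF library was the lowest and no library crossed into the other group. Calr, the lectin chaperone calreticulin, had 586, 577 and 682 CPM in chow and 340, 406 and 261 CPM in HFCF (-0.87 ± 0.17, edgeR adjusted p = 0.0214, and 0.0917 without chow replicate 3). The co-chaperone gene Dnajb11 had 85.8, 93.7 and 100 CPM in chow and 60.7, 65.0 and 49.2 CPM in HFCF (-0.68 ± 0.13, edgeR adjusted p = 0.0198, and 0.0867 without chow replicate 3). Dnajc3, a further co-chaperone gene, had 346, 342 and 360 CPM in chow and 276, 255 and 240 CPM in HFCF (-0.44 ± 0.10, edgeR adjusted p = 0.0446, and 0.158 without chow replicate 3). Without HFCF replicate 1, without chow replicate 3, or without both replicates numbered 1, edgeR called 0 of the 23, while DESeq2's Wald test on all libraries called 13. The stress sensors Atf6, Ern1 and Eif2ak3, named after their values were seen, had changes of -0.14, -0.36 and -0.34, none called.

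The promoters of 3 called chaperone genes are shown because they hold the ER stress response element, the sequence through which ATF6 is known to act. As above they are the 250 bases before the RefSeq start on GRCm38.p6 on the gene's strand: Hspa5 at chr2:34771840-34772089 (plus strand), Calr at chr8:84846932-84847181 (minus strand) and Dnajc3 at chr14:118937682-118937931 (plus strand). Capitals mark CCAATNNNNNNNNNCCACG or its reverse complement, which contains the CCAAT box described above.
Hspa5: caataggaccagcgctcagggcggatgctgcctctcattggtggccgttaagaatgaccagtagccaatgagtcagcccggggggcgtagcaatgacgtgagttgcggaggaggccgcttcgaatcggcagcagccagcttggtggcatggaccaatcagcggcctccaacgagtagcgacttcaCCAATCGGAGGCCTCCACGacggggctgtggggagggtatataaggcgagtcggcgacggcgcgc
Calr: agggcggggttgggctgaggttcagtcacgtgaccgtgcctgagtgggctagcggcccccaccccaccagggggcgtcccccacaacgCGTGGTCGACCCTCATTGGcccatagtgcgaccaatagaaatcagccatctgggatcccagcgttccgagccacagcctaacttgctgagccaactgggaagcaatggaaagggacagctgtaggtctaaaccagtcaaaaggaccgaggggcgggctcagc
Dnajc3: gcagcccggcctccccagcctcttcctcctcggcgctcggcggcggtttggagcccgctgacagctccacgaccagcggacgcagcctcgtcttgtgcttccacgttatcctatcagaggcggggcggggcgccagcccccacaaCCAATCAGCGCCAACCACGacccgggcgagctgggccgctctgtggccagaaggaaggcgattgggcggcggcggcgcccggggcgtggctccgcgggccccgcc
The element begins 65 bases before the start in Hspa5, 162 in Calr, where it reads on the other strand, and 105 in Dnajc3. The bases checked just after the start were found in a GENCODE M21 transcript of Hspa5 and Calr but not of Dnajc3. The Dnajc3 distance thus rests on the RefSeq start alone. The element was found in 8 of 20 windows of the chaperone list (40%), against 33 of 27025 windows over all genes (0.122%). Of 4 called members with a window 3 had it and Dnajb11 did not, and the uncalled Canx, Creld2, Hsp90b1, Pdia6 and Syvn1 had it too. The last 120 bases of the Hspa5 window lie within the GENCODE M21 span of the gene. No window was listed for Hyou1. The activity of the element was not measured.

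Further along the secretory route 4 of 30 genes fell and 0 rose, with a median of -0.11. They were the signal recognition particle receptor subunit Srprb (-0.63 ± 0.12, with 20.7% of its exons under a predicted gene on the same strand), the signal peptidase subunit Spcs2 (-0.70 ± 0.14), the vesicle coat gene Sec23b (-0.50 ± 0.11) and the translocon channel Sec61a1 (-0.49 ± 0.12). Spcs2 stood at 44.1, 41.7 and 43.0 CPM in chow and 27.3, 29.9 and 22.3 CPM in HFCF (edgeR adjusted p = 0.0225, and 0.0809 without chow replicate 1). Sec61a1 stood at 161, 173 and 172 CPM in chow and 118, 123 and 119 CPM in HFCF (edgeR adjusted p = 0.0478, and 0.163 without HFCF replicate 1). Values within each diet were close for both genes and the diets did not overlap. With scaling by total counts 1 of the 30 was called, and 0 without HFCF replicate 1, chow replicate 1 or chow replicate 3. Of 18 members of the ATF4 response edgeR called 0, with 2 at an unadjusted p under 0.05 and 1 called by DESeq2's Wald test. Over all 14725 genes 2397 had such an unadjusted p. Atf4 itself, the factor of the integrated stress response, had 77.4, 71.3 and 81.0 CPM in chow and 66.2, 77.3 and 71.8 CPM in HFCF (-0.09 ± 0.10), and its target Asns, asparagine synthetase, had 31.8, 24.9 and 20.5 CPM in chow and 3.63, 2.47 and 18.7 CPM in HFCF (-1.65 ± 0.66, edgeR adjusted p = 0.26). Tars, the threonyl-tRNA synthetase gene, fell from 155, 129 and 134 CPM to 77.7, 76.5 and 80 CPM (-0.84 ± 0.12, edgeR adjusted p = 0.00597) and kept the call without each library.

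**Figure D5:**
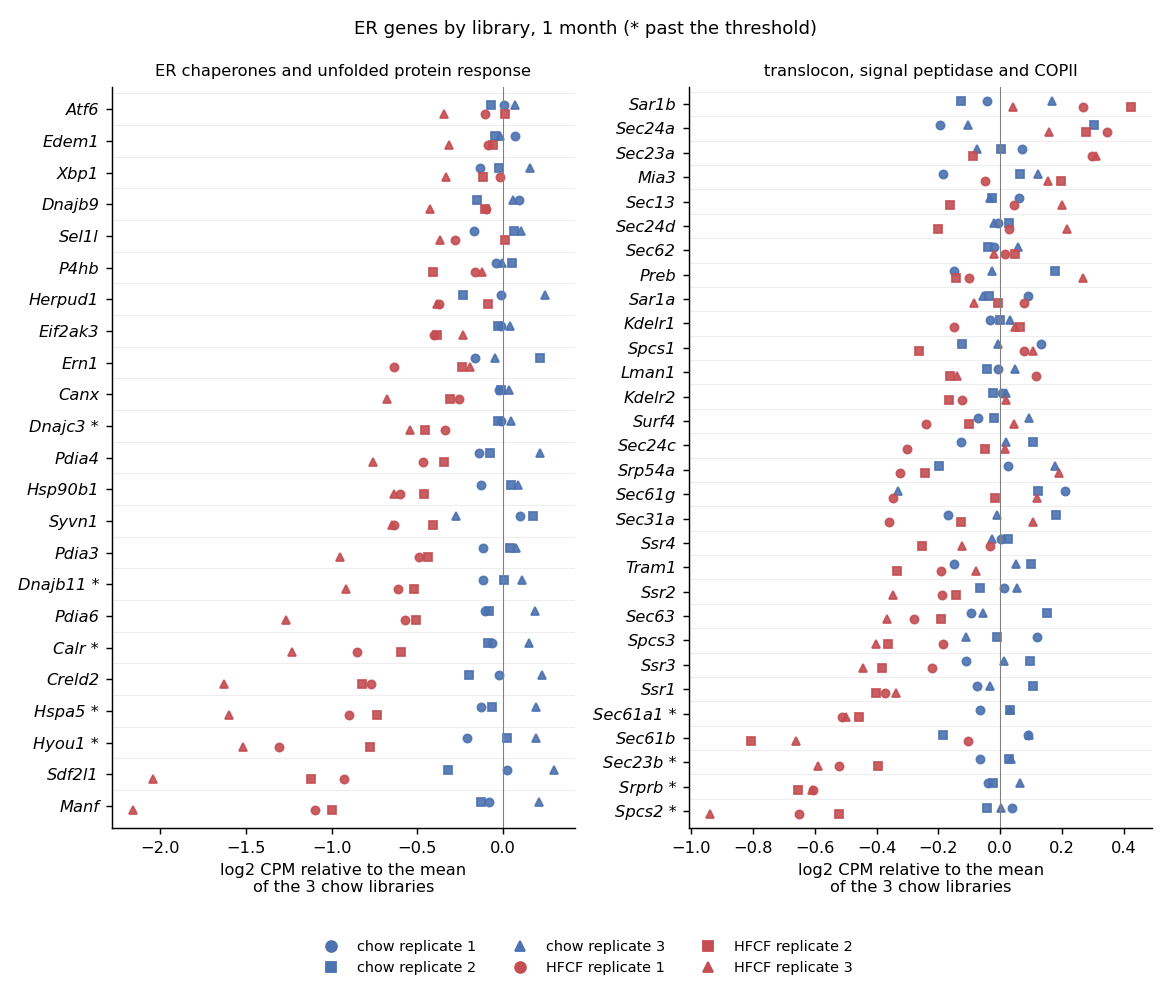
Log2 CPM of each library relative to the mean of the 3 chow libraries (horizontal axis) for ER chaperone genes (left) and for translocon, signal peptidase and vesicle coat genes (right), with rows ordered by log2 change; blue is chow, red is HFCF, symbols are replicates and an asterisk marks called genes. Red symbols lie left of the blue ones in 18 of 23 rows on the left, and HFCF replicate 3 is the lowest for Hspa5, Hyou1 and Calr.

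Xenobiotic cytochromes included the largest fall. Cyp2b10, the classic target of the receptor CAR, had 10.6, 16.4 and 42.2 CPM in chow and 0, 2.47 and 0.341 CPM in HFCF, which are 168, 280 and 596 counts against 0, 37 and 5. It fell by 4.66 (SE 0.91, edgeR adjusted p = 0.0408, and 0.13 without HFCF replicate 1). Cyp3a11, a main drug-metabolising enzyme gene induced through PXR, had 4710, 3330 and 4690 CPM in chow and 960, 2200 and 519 CPM in HFCF (-1.79 ± 0.41, edgeR adjusted p = 0.0487, and 0.193 without HFCF replicate 1). The groups were apart in both genes, which belong to families of close relatives whose reads may be split. They were the 2 called of 22 members, and the list median was -0.20. Among glutathione and NRF2 target genes 2 of 23 fell, Gstm6 and Gstp1. Gstm6, a glutathione transferase gene, had 24.1, 21.5 and 25.9 CPM in chow and 10.5, 16.4 and 10.4 CPM in HFCF (-0.94 ± 0.15, edgeR adjusted p = 0.00813, kept without each library). Gstp1 had 269, 265 and 245 CPM in chow and 199, 157 and 149 CPM in HFCF (-0.63 ± 0.12, edgeR adjusted p = 0.0225, and 0.0829 without chow replicate 1). The NRF2 target Nqo1 had a change of -0.18 ± 0.16.

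Lists of amino acid, metal, heme and retinoid genes had 1 or 2 called members each. These were 3.7%, 11.1%, 9.52% and 12.5% of the members tested, against 2.04% of all genes. Gldc, the decarboxylase of the glycine cleavage system, had 420, 311 and 343 CPM in chow and 95.4, 154 and 163 CPM in HFCF (-1.38 ± 0.19, edgeR adjusted p = 0.00558, kept without each library) and was the 1 called of 27 urea cycle and amino acid genes. Cps1 and Ass1, urea cycle enzymes, had changes of -0.42 ± 0.29 and -0.79 ± 0.28, not called. Slc30a10, which encodes a manganese exporter, had 38.4, 30.9 and 30.5 CPM in chow and 9.23, 8.61 and 10.5 CPM in HFCF (-1.82 ± 0.24, edgeR adjusted p = 0.00558, kept without each library). Replicates within each diet were close for this gene. The retinal reductase gene Rdh11 had 22.8, 24.5 and 23.5 CPM in chow and 13.8, 13.4 and 14 CPM in HFCF (-0.78 ± 0.09, edgeR adjusted p = 0.00234), also kept. Stra6l, the other called member of the retinoid list, fell from 182, 142 and 153 CPM to 94.4, 104 and 101 CPM (-0.67 ± 0.12, edgeR adjusted p = 0.0128, and 0.0664 without HFCF replicate 1). Outside that list, 2 alcohol dehydrogenase genes named after their values were seen rose. Adh1 had 0.86 ± 0.20 (edgeR adjusted p = 0.0436, and 0.166 without chow replicate 1). Adh4 had 0.76 ± 0.17 (edgeR adjusted p = 0.0391, and 0.142 without HFCF replicate 1). Alas1, the first enzyme of heme synthesis, rose from 510, 433 and 668 CPM to 968, 1280 and 1030 CPM (1.02 ± 0.18, edgeR adjusted p = 0.0132, and 0.0592 without chow replicate 1). Scara5, a ferritin receptor gene, fell from 62.3, 19.9 and 51.1 CPM to 8.11, 5.61 and 11.3 CPM (-2.42 ± 0.49, edgeR adjusted p = 0.0412, and 0.17 without HFCF replicate 1). Slc23a2, a vitamin C transporter gene, rose from 16.1, 23.2 and 19.8 CPM to 46.3, 49.6 and 42.6 CPM (1.23 ± 0.13, edgeR adjusted p = 0.0018). Coq10b, which acts in coenzyme Q function, rose from 31.2, 28.1 and 26.9 CPM to 71.6, 75.1 and 97.6 CPM (1.5 ± 0.17, edgeR adjusted p = 0.00234). The adenylate kinase gene Ak4 rose from 35.2, 45.2 and 36 CPM to 65.9, 72.6 and 66 CPM (0.81 ± 0.11, edgeR adjusted p = 0.00433). These last 3 genes kept the call without each library in turn.

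The other large changes were in genes of varied function. Pnldc1, a gene of a poly(A)-specific ribonuclease family, rose from 0.628, 1.70 and 0.779 CPM to 7.16, 5.41 and 5.32 CPM (2.50 ± 0.29, edgeR adjusted p = 0.00188). Adam11, of the ADAM family of membrane proteins, rose from 1.44, 1.58 and 1.91 CPM to 12.4, 8.35 and 5.05 CPM (2.39 ± 0.32, edgeR adjusted p = 0.00541). Both kept the call without each library. Maff, a small MAF transcription factor gene, rose from 3.52, 2.88 and 3.26 CPM to 12.9, 17.2 and 9.76 CPM (2.04 ± 0.35, edgeR adjusted p = 0.0167, and 0.0776 without chow replicate 3). It was the 1 called of 22 immediate early genes (4.55%, against 2.04% of all genes). The laminin subunit gene Lamb3 rose from 12.2, 14.8 and 11.8 CPM to 54.0, 42.9 and 53.5 CPM (1.95 ± 0.36, edgeR adjusted p = 0.0311, and 0.133 without chow replicate 1). Rnf186, an ER ubiquitin ligase gene, and Crybg2 rose by 2.16 ± 0.48 and 1.78 ± 0.34. Slc34a2, a phosphate transporter gene, fell from 0.565, 1.82 and 3.19 CPM to 0.168, 0.200 and 0.0682 CPM (-3.58 ± 0.77, edgeR adjusted p = 0.036). Fam107a and Myom3, the latter a muscle sarcomere gene, fell by 3.24 (SE 0.66) and 2.93 (SE 0.53). Rnf186, Crybg2, Slc34a2, Fam107a and Myom3 each lost the call without at least 1 library, at adjusted p of up to 0.193, 0.088, 0.151, 0.163 and 0.064. Rrm2, a ribonucleotide reductase subunit gene, fell from 5.40, 6.81 and 5.03 CPM to 2.63, 2.40 and 2.46 CPM (-1.20 ± 0.25, edgeR adjusted p = 0.0262, and 0.0968 without HFCF replicate 1). It was the 1 called of 21 cell cycle genes (4.76%, against 2.04% of all genes), whose median was 0.45. The proliferation marker gene Mki67 had a change of 0.67 ± 0.42, not called.

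Inflammation and interferon genes gave few edgeR calls at 1 month. Of 23 interferon-stimulated genes 2 rose (8.7%, against 1.04% of all genes) and 0 fell, with a median of 0.66 and 22 positive changes. All HFCF libraries lay above all chow libraries in 8 and below them in 1, against 10.1% and 10.5% of all genes. By edgeR 17 of the 23 had an unadjusted p under 0.05, against 2397 of all 14725 genes, and DESeq2's Wald test called 7. The antiviral tetherin gene Bst2 had 45.5, 42.7 and 40.9 CPM in chow and 96.0, 64.0 and 67.9 CPM in HFCF (0.82 ± 0.15, edgeR adjusted p = 0.0146, and 0.0708 without chow replicate 3). Ifi44 had 2.07, 1.88 and 2.48 CPM in chow and 6.93, 3.87 and 3.41 CPM in HFCF (1.16 ± 0.27, edgeR adjusted p = 0.0436, and 0.196 without HFCF replicate 1). HFCF replicate 1 was the highest for both genes, and the list's median in that library was 1.16 above the chow mean on the log2 scale, against 0.44 and 0.13 in the other HFCF libraries. Without HFCF replicate 3 edgeR called 7 of the 23. Of 12 Kupffer cell markers edgeR called 0 and DESeq2's Wald test 3, with 4 at an unadjusted p under 0.05. Their summed level ran from 776.7 to 844.8 CPM in chow and from 776.9 to 1222 CPM in HFCF, and their part in the interferon values was not tested. The neutrophil chemokine gene Cxcl1 rose from 1.88, 2.99 and 2.90 CPM to 6.93, 5.48 and 5.94 CPM (1.24 ± 0.22, edgeR adjusted p = 0.0132, and 0.0648 without HFCF replicate 1). It was the 1 called of 21 cytokine and NF-kappaB genes (4.76%, against 2.04% of all genes). Tnf was at 0 to 0.401 CPM in all 6 libraries. The acute phase genes Saa1 and Saa2, close relatives, were high in HFCF replicates 1 and 3 and not in replicate 2. Saa1 had 94.6, 92.0 and 29.2 CPM in chow and 1290, 32.4 and 2340 CPM in HFCF (4.08 ± 1.57, edgeR adjusted p = 0.25).

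In the 12 lists of markers of other cell types edgeR called 0 of 98 entries, with 15 at an unadjusted p under 0.05 and 5 called by DESeq2's Wald test. Over all 14725 genes 2397 had such an unadjusted p, and the Wald test's calls over all genes are given below. Recruited macrophage markers, 15 in all, summed to between 114.4 and 143.4 CPM in chow and between 123.7 and 187.2 CPM in HFCF. Trem2, a receptor gene of lipid-associated macrophages, stood at 0.816, 0.528 and 0.992 CPM in chow and 1.23, 1.74 and 2.52 CPM in HFCF (1.23 ± 0.79, edgeR adjusted p = 0.486), while Gpnmb, of the same cells, had a change of -0.23 ± 1.45. The 17 stellate cell markers summed to between 668.5 and 824.6 CPM in chow and between 690.7 and 715.2 CPM in HFCF, with chow replicate 1 the highest. The same library was the highest for the collagen gene Col1a1, which had 12.7, 1.11 and 1.98 CPM in chow and 4.08, 3.34 and 4.30 CPM in HFCF (-0.43 ± 1.03, edgeR adjusted p = 0.885). Of 33 matrix genes Lamb3 alone was called (3.03%, against 2.04% of all genes). Chow replicate 1 was also the highest for Acta2, the smooth muscle actin gene, at 14.3 CPM against 2.00 and 0.425 CPM in its group.

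Most of the 1-month calls had the same direction at 3 months. At 3 months 2802 genes were called (19%, with 11.5% higher and 7.5% lower), among them 178 of the 301 in the same direction, which is 59.1% of the 1-month calls and 6.35% of the 3-month calls. Sqle changed by -3.65 at 1 month and -3.21 at 3 months, Fdps by -2.32 and -1.94, Abcg5 by 1.35 and 1.30, and Fabp2 by 1.28 and 1.37. Gys2 had 1.52 ± 0.21 at 1 month and 0.06 ± 0.20 at 3 months, Irs2 1.58 ± 0.26 and 0.11 ± 0.26, Slc30a10 -1.82 ± 0.24 and -0.14 ± 0.23, and Cdkn1a -4.21 ± 0.78 and -0.77 ± 0.68. None of these 4 had a called difference between the months (edgeR adjusted p of the difference 0.0745, 0.122, 0.0855 and 0.175). Of the 120 genes called at 1 month and not at 3 months edgeR called the difference for 0, and over all genes it called 6 (0.0407%), with 2296 at an unadjusted p under 0.05 and 367 called by DESeq2's Wald test. Called in opposite directions at the 2 months were 3 genes, Gstm6, Abcb11 and, named after its values were seen, the adenosine receptor gene Adora1. Age and feeding time differ together between the months and cannot be told apart.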

How the data were processed

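Total RNA of frozen mouse liver was sequenced after depletion of ribosomal RNA with a stranded TruSeq kit, per the labels' protocols. The authors deposited raw read counts per gene on genome build mm10, per the submitters' processing notes. Which aligner and counter were run, and on which strand, is not given in the sources used here. Deposited FPKM values were not used. The authors' deposited log2 ratio and the score, -10 times the log10 of their adjusted p per the file headers, served only to set their calls beside those made here. The deposited Total BPs column, other bases per gene model, was not used. Gene positions were read against GENCODE release M21, where 15306 of the 16035 identifiers exist; deposited starts were shifted by 1 to count from 1. An empty line was dropped.

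The tests used edgeR 4.0.16 (with limma 3.58.1, R 4.3.3); tables and figures were made in Python 3.11.15 with pandas 2.3.3 and matplotlib 3.10.9. filterByExpr left 14725 genes and removed 1310. The contrast came from a robust quasi-likelihood model with a mean for each of 4 groups, fitted to the 12 libraries after TMM scaling, with a common biological coefficient of variation of 0.153. TMM factors of the 6 libraries were 0.921 to 0.964. CPM are scaled by these factors, and the SE follows from the test as the absolute change over the root of its F. The threshold was a Benjamini-Hochberg adjusted p under 0.05. The labels call the libraries of a group biological replicates, 3 per group.

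The 51 gene lists, the tests and the rule for naming genes were chosen with earlier results of these data known. The rule named the 12 largest rises and falls without overlap whose mean reached 1 CPM, the 10 smallest p in each direction, up to 8 called members and the first 2 members of each list, and 5 genes in each direction for the difference between months. Further called members of a described list, and genes said to be so, were named after their values were seen. Predicted genes, 21 of the 301 calls, were not named. Of 986 list entries 943 were found, and the others were not analysed here. A few members count in their lists but are not reported here by name.

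Promoter windows came from RefSeq on GRCm38.p6; shown windows were chosen among called members. In simulated counts of this comparison over 14502 genes, 76% of 2-fold and 97% of 4-fold changes were recovered, with 6 false calls of 179. Changes were planted only in genes averaging at least 1 CPM, with independent noise in each library. Outlying libraries were not imitated, so these rates need not hold for the real libraries. Libraries within a diet differed beyond sampling noise (chi-square per gene 12.1 to 59.9), so none was a resequenced copy of another. Whether any were prepared from the same liver was not tested. Deviations of same-numbered chow and HFCF libraries correlated at -0.0675, -0.0825 and -0.125, so the numbers gave no sign of pairing. Across numbers, chow 1 with HFCF 3 had 0.145, chow 2 with HFCF 1 had 0.146 and chow 3 with HFCF 2 had 0.184. The remaining pairs were negative, and a pairing in another order was not tested. Alternatives were DESeq2 1.42.0 size factors and Wald test, total counts, other filters, a replicate block, the 6 libraries alone and leaving out each library; leaving out both replicates numbered 1 was chosen after seeing the data.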

Additional observations from a re-analysis of the deposited data

Results flagged for a closer look

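For 6 genes, 0.0407% of those tested, the diet effect itself differed between 1 and 3 months by edgeR's interaction test. Values are the 1-month change minus the 3-month change on the log2 scale. Tnfaip3, an inhibitor of NF-kappaB signalling, had a difference of -2.17 ± 0.34 (edgeR adjusted p = 0.0464), with -0.81 ± 0.25 at 1 month and 1.36 ± 0.23 at 3 months. At 1 month it stood at 6.34, 6.22 and 6.09 CPM in chow and 3.91, 3.74 and 2.93 CPM in HFCF. Nes, the intermediate filament gene nestin, had a difference of -1.89 ± 0.30 (edgeR adjusted p = 0.0464), from -0.33 ± 0.22 and 1.56 ± 0.20. The glutathione transferase gene Gstm6 had a difference of -1.39 ± 0.21 (edgeR adjusted p = 0.0419) and was called in both months, at -0.94 ± 0.15 and 0.45 ± 0.15.

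Differences in the other direction were in Ccnd3, Dact2 and Peg3, each with an edgeR adjusted p of 0.0419. The cyclin gene Ccnd3 had a difference of 0.87 ± 0.13, from 0.27 ± 0.09 and -0.60 ± 0.09. Dact2, a regulator of Wnt and TGF-beta signalling, had 1.19 ± 0.17, from 0.39 ± 0.12 and -0.81 ± 0.12. The imprinted gene Peg3 had 1.61 ± 0.24, from -0.07 ± 0.17 and -1.68 ± 0.17, so that its 1-month groups overlapped while it fell at 3 months. Of the 6, only Gstm6 was called at 1 month.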

How the results depend on the processing

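At 1 month 301 genes were called, and the count was 299 with DESeq2 size factors, 248 with total counts (57.3% higher against 50.8%), 275 without a filter and 305 where genes had to average 1 CPM. By the Wald test DESeq2 called 641 (366 higher, 275 lower), and a fit of the 6 libraries alone called 147 (73 higher, 74 lower). Leaving out 1 library gave 65 to 289 (29 to 160 higher, 31 to 137 lower), and leaving out both replicates numbered 1 gave 20 (8 higher, 12 lower). Same-numbered samples did not deviate together, and the replicate block gave 211, with 99 higher and 112 lower. For the difference between months 6 genes were called by edgeR, 367 by DESeq2's Wald test and 48 with the replicate block. With total counts edgeR called 0, with 2456 at an unadjusted p under 0.05. Leaving out 1 library gave 0 to 878, the highest without HFCF replicate 3 of 3 months. Total counts moved the median difference between months over all genes to -0.108. The causes were not tested. Of the 301 calls, 299 kept their direction without each of the 6 libraries in turn. Direction was less steady in some uncalled genes. For Col1a1, the chow library numbered 1 alone lay above the HFCF libraries. With 3 libraries a group, a change missed here is not shown to be absent.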

Other observations

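By the authors' deposited table, a total of 628 of the genes tested here passed an adjusted p under 0.05 for the diets at 1 month, and 297 of the 301 genes called here were among them. Gpr146, a receptor gene, rose from 57.1, 78.2 and 68.0 CPM in chow to 122, 117 and 111 CPM in HFCF (0.79 ± 0.11, edgeR adjusted p = 0.00558), and kept the call without each library in turn. Jade2, a chromatin gene, fell from 22.7, 21.1 and 23.2 CPM to 11.8, 12.9 and 12.5 CPM (-0.85 ± 0.12, edgeR adjusted p = 0.00558) and also kept it. The secreted regulators Inhbc and Angptl8 were the 2 called of 19 hepatokine genes (10.5%, against 2.04% of all genes). Inhbc rose from 12.7, 14.4 and 15.7 CPM to 20.6, 20.9 and 18.8 CPM (0.50 ± 0.11, edgeR adjusted p = 0.0401), and Angptl8, an inhibitor of lipoprotein lipase, fell from 6.53, 8.86 and 6.09 CPM to 3.97, 3.67 and 2.52 CPM (-1.07 ± 0.24, edgeR adjusted p = 0.0361). Both lost the call without at least 1 library, at adjusted p of up to 0.17 and 0.1. Inhbb, a relative of Inhbc outside that list, was named after its values were seen. It fell by 1.66 (SE 0.26, edgeR adjusted p = 0.00744) and kept the call without each library. The stress protein gene Bag3 fell from 13.2, 12.2 and 9.70 CPM to 7.16, 6.48 and 8.05 CPM (-0.70 ± 0.17, edgeR adjusted p = 0.0455, and 0.184 without chow replicate 1). It was the 1 called of 21 cytosolic heat shock genes (4.76%, against 2.04% of all genes).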
